A study of Bos taurus with 4 samples.

Results

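The genes described here are the regulators of mitochondrial apoptosis of the BCL2 family, together with FAIM, the Fas apoptosis inhibitory molecule, in bovine gamma delta T cells. They were chosen by symbol, and the rule uses no measured value, although earlier results of these data were known when the group was proposed: BCL2, BCL2L1, MCL1, BCL2A1, BAX, BAK1, BID, BAD, BCL2L11 and FAIM. Of these 10 symbols, 8 had a named probe set on the array, out of 9155 named genes in all, and BID and BCL2L11 were not analysed here. The 8 genes are read by 12 probe sets, 5 of them for BCL2 and 1 for each of the other 7 genes. FAIM carries no BCL2 homology and stands in this group by function only.

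The APP group held cells treated for 4 h with an aqueous apple polyphenol (APP) extract, given as 42.2 µg/ml in the series' design text, and the PBS group held cells treated for the same time with phosphate-buffered saline. Cells of calves 301 and 303 were each split between the treatments, which gives 2 arrays per group and 4 in all. The cells were sorted from blood to over 97% purity and rested overnight before treatment, and no breed or genotype is given in the sources used here. The labels' protocols put the donors at 1 to 6 months of age, while the design text calls them neonatal.

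The BCL2 family decides whether the outer mitochondrial membrane stays sealed. BAX and BAK1 can form pores through which cytochrome c leaves and starts the caspase cascade, the survival proteins BCL2, BCL2L1 (BCL-XL), MCL1 and BCL2A1 (A1) hold them in check, and BH3-only proteins such as BAD bind the survival proteins. In lymphocytes, antigen receptor and cytokine signals raise several of the survival genes, and FAIM, first found in mouse B cells, protects against death through Fas.

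Values are deposited as ratios of each probe set's signal to its own median over the 4 arrays. A ratio of 1 is therefore that probe set's midpoint, changes between arrays can be read, and the level of a gene cannot be read or set against another gene. A change is the log2 ratio in APP minus that in PBS within a calf, and a gene was called when limma's adjusted p, over all 9155 genes with the calf as a block, lay under 0.05. By this rule 23% of all genes rose and 29.7% fell, so that a call by itself is common. Changes of at least 2-fold in both calves were rarer, with 3.5% of genes up and 6.29% down. The median change of all genes was 0.01, but hybridization controls read higher on the APP arrays, with log2 differences of 0.76 for calf 301 and 0.94 for calf 303. These were the 14 probe sets of bioB, bioC and bioD, added to each labelled sample in equal amount by the standard Affymetrix protocol. Scaling the arrays to the mean of these controls lowers every change by 0.85 on average (median of all genes -0.84). Each change below is therefore relative to the typical gene on the same arrays. The controls did not share 1 offset: they ran from 0.451 (a bioD probe set, calf 301) to 1.257 (a bioB probe set, calf 303). The sign of a change of this size therefore depends on the control chosen. The source of this offset was not tested.

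Of the survival genes, BCL2L1 rose 3.79-fold, BCL2A1 3.82-fold and MCL1 1.52-fold. With BCL2, discussed by probe set below, 4 of the 8 measured genes rose, 2 fell (FAIM and BAK1) and 2 did not pass the test (BAX and BAD), beside 23% and 29.7% of all genes. The median change of the 8 was 0.20, against 0.01 for all genes. At 2-fold or more in both calves, 2 of the 8 rose (BCL2L1 and BCL2A1) and 1 fell (FAIM). In the alternative fits that follow, fewer of all genes rose than in the main fit, as counted in the closing section. Without the calf as a block 4 rose and 1 fell, and leaving out 1 array as well gave the same counts for either APP array and 2 rises and 1 fall for either PBS array.

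**Figure D1:**
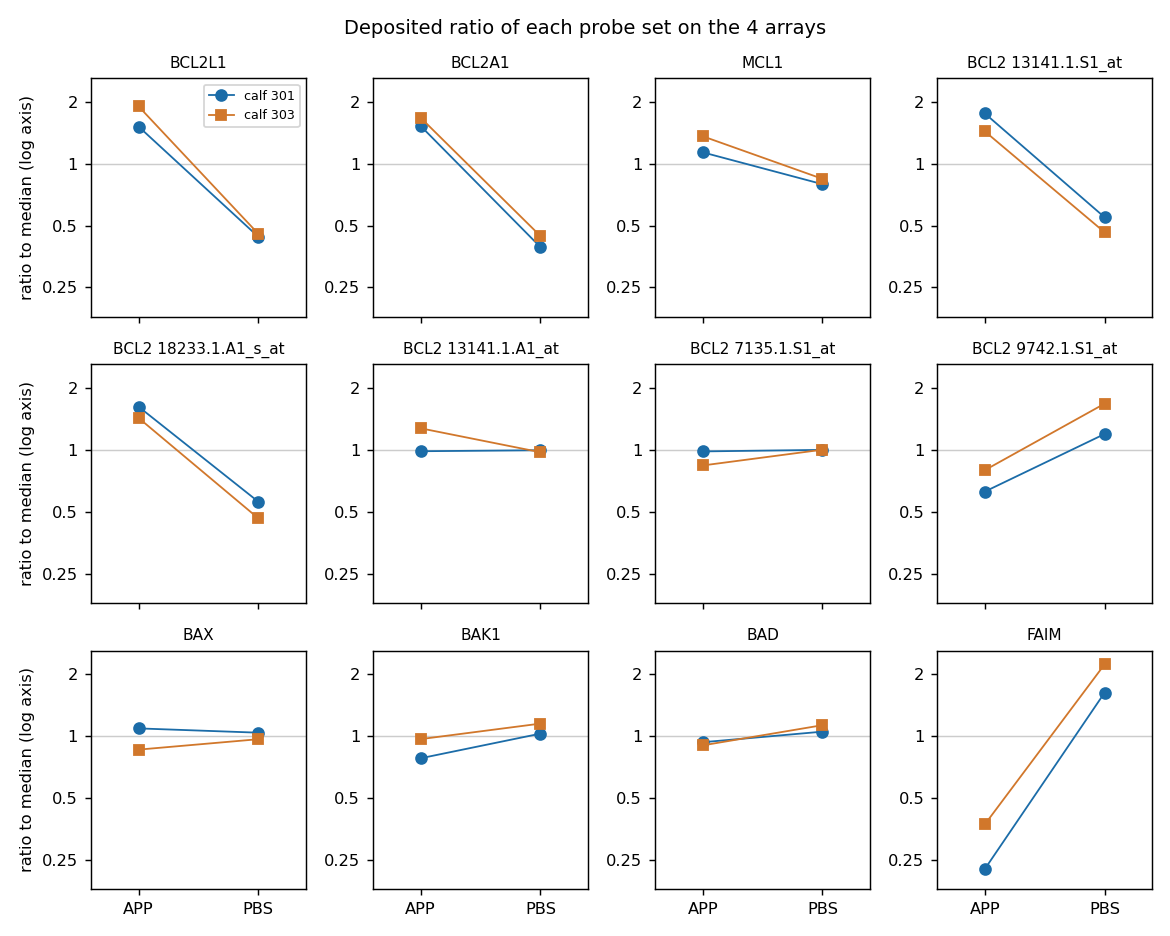
Deposited ratio of each of the 12 probe sets to its own median (log axis) on the APP and PBS arrays, with a line joining the arrays of the same calf. BCL2L1 lies at 1.52 and 1.90 on the APP arrays against 0.441 and 0.456 on the PBS arrays, FAIM runs the other way, and the 5 panels of BCL2 do not share a direction.

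BCL2L1 encodes BCL-XL, a survival protein that binds BAX, BAK1 and BH3-only proteins. Its ratios were 1.52 in calf 301 and 1.90 in calf 303 with APP, against 0.441 and 0.456 with PBS. Both APP arrays lay far above both PBS arrays, and the PBS arrays differed by only 0.05 on the log2 scale. The change was 1.92 ± 0.20 (SD, n = 2 calves), or 3.79-fold, with 1.78 in calf 301 and 2.06 in calf 303 (limma adjusted p = 2.8e-05). It was the rise of rank 104 among the 9155 genes. Scaled to the hybridization controls the change was 1.07, so the rise of BCL2L1 did not depend on which of these scalings was used.

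BCL2A1 encodes A1, a short-lived survival protein of blood cells and a well-known NF-kappaB target. Its ratios were 1.53 in calf 301 and 1.67 in calf 303 with APP, against 0.393 and 0.445 with PBS. The groups stood as far apart as those of BCL2L1, and here the calves gave nearly the same change. The change was 1.93 ± 0.03 (SD, n = 2 calves), 3.82-fold (limma adjusted p = 1.9e-05), which put BCL2A1 at rank 101 among the rises, and it was 1.08 when scaled to the hybridization controls. The changes of BCL2L1 and BCL2A1 differed by -0.18 in calf 301 and 0.15 in calf 303, opposite in sign.

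MCL1 encodes a survival protein with a fast turnover that T cells need at many stages. Its ratios were 1.14 and 1.36 in calves 301 and 303 with APP, against 0.795 and 0.844 with PBS. The groups did not overlap, although the gap was narrow beside those of BCL2L1 and BCL2A1. The change was 0.60 ± 0.12 (SD, n = 2 calves), 1.52-fold (limma adjusted p = 0.00237). This call was lost, in the fit without the calf block, when the PBS array of calf 301 (0.56, adjusted p = 0.0804) or of calf 303 (0.64, adjusted p = 0.0599) was left out, and the direction turned to -0.25 when the arrays were scaled to the hybridization controls. Against BCL2L1, MCL1 rose less by 1.27 in calf 301 and 1.37 in calf 303, a difference within the same arrays that scaling by 1 factor per array does not alter.

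BCL2, the founding survival gene of the family, gave no common answer across its 5 probe sets. Averaged over them the change was 0.46 ± 0.01 (SD, n = 2 calves; limma adjusted p = 0.00625), but that average covers 2 probe sets that rose, 1 that fell and 2 that did not pass the test over all 24016 probe sets, where 16.3% rose and 23.6% fell. The median of the 5 probe sets was 0.19 (adjusted p = 0.257), and without the probe set whose suffix (_s) marks possible cross-matching the mean was 0.17 (adjusted p = 0.171), so the call for the gene did not hold under either summary. The median of the 5 was on each array the value of 1 probe set, Bt.13141.1.A1_at. Scaled to the hybridization controls the average was -0.40.

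The probe set Bt.13141.1.S1_at of BCL2 read 1.76 in calf 301 and 1.44 in calf 303 with APP, against 0.549 and 0.464 with PBS, a change of 1.65 ± 0.03 (SD, n = 2 calves; 3.15-fold, limma adjusted p = 0.000174). Bt.18233.1.A1_s_at followed it closely, with ratios of 1.62 and 1.43 with APP against 0.559 and 0.464 with PBS and a change of 1.58 ± 0.06 (adjusted p = 2e-04). These 2 probe sets separated APP from PBS on all arrays, and their changes stayed above 0 when scaled to the hybridization controls, at 0.80 and 0.73. Bt.9742.1.S1_at went the opposite way, with ratios of 0.626 and 0.796 with APP against 1.19 and 1.68 with PBS. It fell by 1.00 ± 0.10 on the log2 scale (limma adjusted p = 0.000833), a call that did not hold in the fits that left out the APP array of calf 301 (-0.83, adjusted p = 0.0539) or the PBS array of calf 303 (-0.76, adjusted p = 0.0758). Within the same arrays Bt.13141.1.S1_at and Bt.9742.1.S1_at parted by 2.61 in calf 301 and 2.71 in calf 303.

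The remaining BCL2 probe sets moved little. Bt.13141.1.A1_at, of the same cluster number as the strongest riser, read 0.984 and 1.27 with APP against 0.995 and 0.973 with PBS, so the groups overlapped (change 0.19, 95% interval -0.14 to 0.51, limma adjusted p = 0.322). Bt.7135.1.S1_at read 0.982 and 0.839 with APP against 0.999 and 1.00 with PBS (change -0.14, 95% interval -0.42 to 0.14, adjusted p = 0.388). The range of 2.66 between the probe sets of BCL2 was wide: among the 75 genes with at least 5 probe sets the median range was 0.69, and only EED, named here after its values were seen and listed with 23 probe sets, had a wider one (3.34). Of those 75 genes, 12 (16%) had probe sets called in both directions. The platform table assigns all 5 probe sets to BCL2 and does not say which part of the transcript each reads. Which strand each reads was not checked, also for Bt.13141.1.S1_at and Bt.13141.1.A1_at, whose names differ in S1 and A1.

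**Figure D2:**
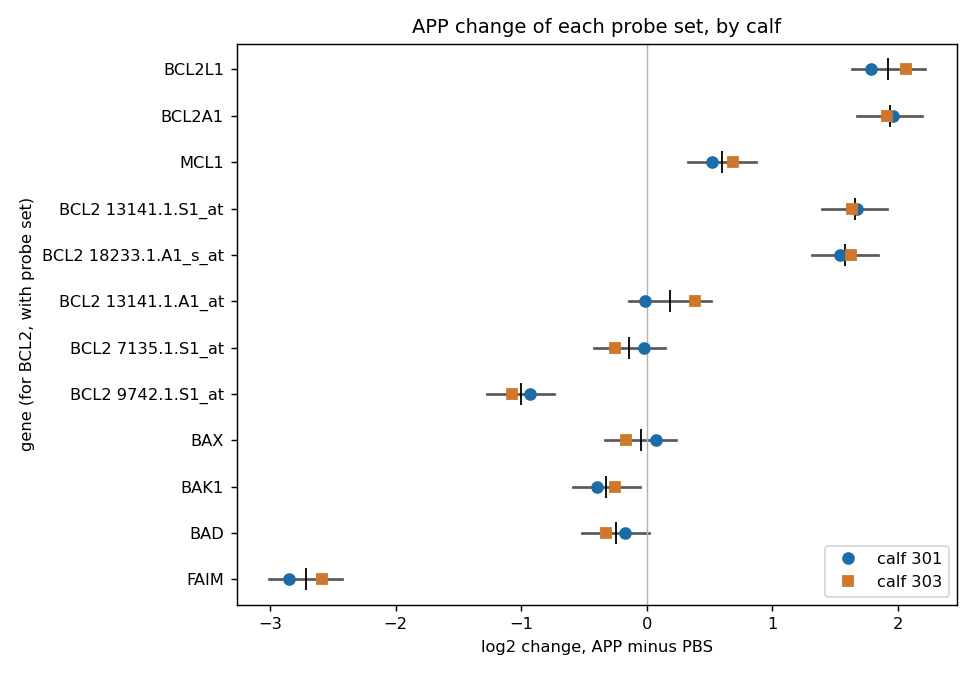
Log2 change, APP minus PBS, of each of the 12 probe sets, with a circle for calf 301, a square for calf 303, a tick at the mean and a bar for limma's 95% interval over all probe sets. The calves lie close together in nearly every row, while the probe sets of BCL2 lie on both sides of 0, with 1.65 at the top.

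The genes of the pore-forming proteins changed little. BAX read 1.09 in calf 301 and 0.857 in calf 303 with APP, against 1.04 and 0.963 with PBS. The groups overlapped, and BAX alone among the 8 genes had changes of opposite sign in the calves, 0.07 and -0.17 (mean -0.05, 95% interval -0.30 to 0.20, limma adjusted p = 0.717). BAK1 read 0.778 and 0.964 with APP against 1.02 and 1.15 with PBS, the APP arrays below both PBS arrays by a small margin. It fell by 0.32 ± 0.10 on the log2 scale (SD, n = 2 calves; 1.25-fold lower, limma adjusted p = 0.0294), but its probe set did not pass in the fit over all probe sets (adjusted p = 0.0592), nor did the gene pass without the calf block (adjusted p = 0.13).

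BAD encodes a BH3-only protein that binds BCL2 and BCL-XL and is held inactive by phosphorylation and 14-3-3 proteins. Its ratios were 0.931 in calf 301 and 0.899 in calf 303 with APP, against 1.05 and 1.13 with PBS. Both APP arrays lay below both PBS arrays, yet the change of -0.25 ± 0.11 (SD, n = 2 calves; 95% interval -0.48 to -0.01) did not pass the adjusted test (limma adjusted p = 0.0726). Separation of the groups is common here: it held for 7 of the 8 genes and for 73.8% of all genes.

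FAIM changed the most of the 8 genes, and it fell. Its ratios were 0.225 in calf 301 and 0.371 in calf 303 with APP, against 1.62 and 2.23 with PBS. Both APP arrays lay far below both PBS arrays. FAIM fell by 2.72 ± 0.19 on the log2 scale (SD, n = 2 calves), 6.58-fold, with -2.85 in calf 301 and -2.59 in calf 303 (limma adjusted p = 1.1e-05), the fall of rank 4 among all 9155 genes. Scaled to the hybridization controls the change was -3.57. FAIM rests on 1 probe set, Bt.26318.1.S1_a_at, whose suffix (_a) marks probes shared by several transcripts of the same gene, so a change in 1 transcript form could not be told apart from a change in all.

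Differences between genes within the same arrays are not altered by scaling with 1 factor per array. BCL2L1, BCL2A1 and MCL1 were set against BAX and BAK1 in this way. BCL2 was not, since its probe sets disagree and Bt.9742.1.S1_at lay below BAX (-0.05) and BAK1 (-0.32), as did the survival gene BCL2L2 at -0.62. BCL2L1 rose relative to BAX by 1.97 ± 0.36 on the log2 scale (1.71 in calf 301 and 2.23 in calf 303) and relative to BAK1 by 2.24 ± 0.09 (SD, n = 2 calves). BCL2A1 parted from BAX by 1.98 ± 0.14 and from BAK1 by 2.26 ± 0.14. For MCL1 the gap was 0.45 and 0.86 from BAX, and 0.91 and 0.94 from BAK1, in calves 301 and 303. BCL2L1 and FAIM, both known for protection from death, moved apart by 4.63 in calf 301 and 4.65 in calf 303. These differences describe unequal change and were not tested.

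**Figure D3:**
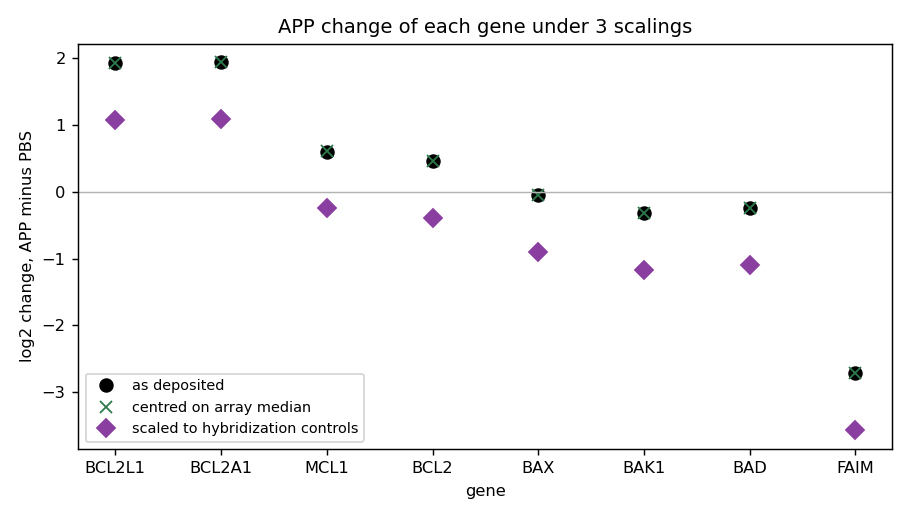
Mean log2 change, APP minus PBS, of each of the 8 genes with arrays as deposited (circles), centred on the array median (crosses) and scaled to the hybridization controls (diamonds). BCL2L1 and BCL2A1 stay above 0 at 1.07 and 1.08 and FAIM stays below 0 at -3.57 in the last scaling, while MCL1 and BCL2 change sign.

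The calves were also compared with each other in these genes. The difference between calf 303 and calf 301, the other term of the same fit, passed limma's adjusted test for none of the 8 genes (2 of them, FAIM and BAK1, had an unadjusted p under 0.05), where 1.7% of all genes passed. The widest difference was that of FAIM, 0.59 higher in calf 303 (limma adjusted p = 0.0526), with 0.72 in the APP arrays and 0.46 in the PBS arrays. For BCL2L1 the calves differed by 0.33 in APP and 0.05 in PBS (adjusted p = 0.439). For BAX the difference of -0.22 was larger than its APP change of -0.05, and for BAK1 it was 0.24 beside an APP change of -0.32. A difference of response between the calves could not be tested, because each calf gave 1 array per treatment.

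Some genes followed the same pattern over the 4 arrays, measured as the Euclidean distance between log2 values after each gene was centred on its mean. Nearest to BCL2L1 were the chemokine gene CCL3 (distance 0.04, with changes of 1.79 in calf 301 and 2.01 in calf 303), the zinc transporter gene SLC39A14 (0.08) and PUS7, of a pseudouridine synthase (0.11). Nearest to FAIM were LPAR6, of a lysophosphatidic acid receptor (0.14, with -2.89 and -2.40), TMEM106C (0.18) and PTER (0.20). With 4 arrays such distances are small for any genes of like change.

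Other members of the family and genes of similar function moved both ways. Of the 15 with a probe set, 5 rose and 3 fell, beside 23% up and 29.7% down over all genes, and their median change of 0.02 was close to that of all genes. FAIM2, which shares its name and a role in blocking Fas with FAIM but belongs to the TMBIM proteins, rose by 1.10 ± 0.02 (SD, n = 2 calves; limma adjusted p = 0.000122), and its relative TMBIM1 by 0.87 ± 0.07. BCL2L2, the survival gene for BCL-w, fell by 0.62 ± 0.01 on the log2 scale (adjusted p = 0.00156), against the direction of BCL2L1. BCAP31, a partner of BCL2 in the endoplasmic reticulum, rose by 0.37, BCL2L15 rose by 0.36, and BECN1, an autophagy protein held by BCL2, fell by 0.32 on the log2 scale. Without the calf block TMBIM1 (limma adjusted p = 0.265), BCAP31 (0.173) and BECN1 (0.0533) did not pass. With 1 array left out as well, TMBIM1 (0.22 to 1.51), BCL2L15 (0.33 to 0.40) and BECN1 (-0.37 to -0.27) passed in none of the 4 fits, BCAP31 (0.14 to 0.60) passed only without the APP array of calf 303, and BCL2L2 did not pass without the PBS array of calf 301 (-0.57, adjusted p = 0.0556). Scaled to the hybridization controls, FAIM2 stood at 0.24 (adjusted p = 0.119) and TMBIM1 at 0.01 (adjusted p = 0.928), while BCAP31 and BCL2L15 turned below 0, at -0.48 and -0.49. Without probe sets of suffix _s, _x or _a, BECN1 stood at -0.20 and did not pass (limma adjusted p = 0.144).

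Modifiers and partners of BCL2 family proteins numbered 36, of which 17 rose and 8 fell (median 0.23), beside 23% up and 29.7% down over all genes. PIM1, a kinase that phosphorylates BAD, rose 3.18-fold (1.67 ± 0.13, SD, n = 2 calves; limma adjusted p = 3.4e-05), while BAD itself stood at -0.25. Of the 7 genes of 14-3-3 proteins, which hold phosphorylated BAD in the cytosol, 5 rose (YWHAG 0.74, YWHAQ 0.70, YWHAZ 0.58, YWHAH 0.42 and YWHAE 0.32) and YWHAB fell by 0.67 on the log2 scale, and SFN stood at 0.25 (adjusted p = 0.0649). All 5 of these rises turned below 0 when scaled to the hybridization controls. YWHAE (limma adjusted p = 0.0509) and YWHAZ (0.0879) did not pass without the calf block, and with 1 array left out YWHAE passed in none of the 4 fits, YWHAH and YWHAZ in 1 each and YWHAG in 2. Of the ubiquitin ligases that mark MCL1 for degradation, FBXW7 rose by 0.67 ± 0.32 (-0.18 in the control scaling, and adjusted p = 0.0555 without the block, with a call in only 1 of the 4 fits that left out an array) and HUWE1 stood at 0.14 (adjusted p = 0.307). The BAG cochaperones BAG4 (1.93 ± 0.36) and BAG2 (1.28 ± 0.64) rose and BAG3 fell by 0.94 on the log2 scale. PTBP1, a splicing factor that acts on BCL2L1 transcripts, rose by 1.29 ± 0.11, and VDAC2, which holds BAK1 at the mitochondrion, stood at 0.16 (adjusted p = 0.202).

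**Figure D4:**
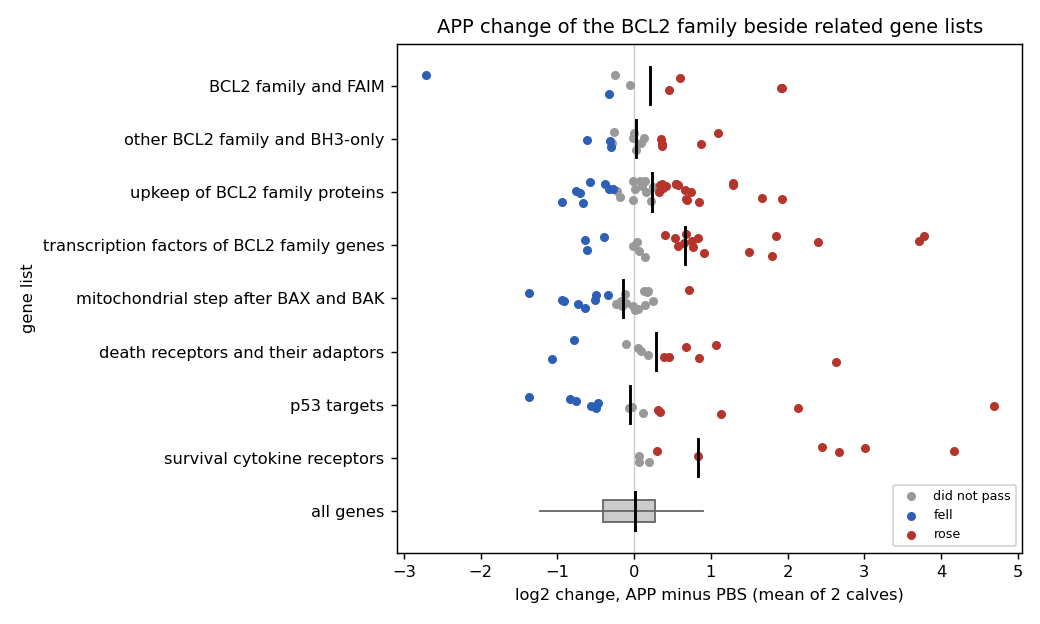
Mean log2 change, APP minus PBS, of each gene of the BCL2 family group and of 7 related lists, coloured by limma's call, with a black tick at each list's median. The bottom row gives all 9155 genes as a box of the middle 50% and a line over the middle 90%, and the BCL2 family group reaches beyond that line on both sides.

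Of 22 genes of transcription factors known to act on BCL2 family genes, 15 rose and 3 fell, with a median of 0.66. Over all genes 23% rose and 29.7% fell. NFKB1 (1.49 ± 0.06, SD, n = 2 calves) and NFKB2 (2.40 ± 0.43), of NF-kappaB subunits that drive BCL2A1 and BCL2L1, rose, as did RELA (0.83, or -0.02 when scaled to the hybridization controls) and STAT5B (0.92 ± 0.30, or 0.06 in the same scaling), which drives BCL2L1 downstream of cytokines. NR4A1 (3.77), whose protein can bind BCL2, ATF3 (3.71), MYC (1.85) and JUN (1.80, with 0.06 to 2.69 over its 5 probe sets) also rose, while FOXO4, of a factor family that raises BH3-only genes, fell by 0.64 on the log2 scale, a call lost without the PBS array of calf 301 (-0.58, limma adjusted p = 0.0761). Of 9 survival cytokine and receptor genes, 6 rose and none fell, at a median of 0.83, beside 23% and 29.7% of all genes. TNFRSF18, IL4R, IL2RA and IL21R changed by 3.01, 2.67, 2.44 and 0.83. For IL2 the change was 3.16 (calf 301) and 5.17 (calf 303), which gives 4.16 ± 1.42 (SD, n = 2 calves), and it ran between 3.34 and 4.99 in the fits that left out 1 array. For IL21R the change became -0.02 when scaled to the hybridization controls.

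For the 22 genes of the mitochondrial step, downstream of BAX and BAK1, limma called 8 falls and 1 rise and the other 13 did not pass, beside 29.7% down and 23% up over all genes (median -0.14, against 0.01 for all genes). CASP9, the caspase started by the apoptosome, fell by 0.74 ± 0.41 on the log2 scale (-1.03 in calf 301 and -0.45 in calf 303; limma adjusted p = 0.00506), a call lost on leaving out either array of calf 301, at -0.61 for APP (adjusted p = 0.0599) and -0.57 for PBS (adjusted p = 0.0748), and its activator APAF1 stood at -0.23 (adjusted p = 0.0853). DFFB, the nuclease that cuts DNA in dying cells, fell by 1.38 on the log2 scale (-2.39 and -0.36 in its probe sets), CASP6 by 0.94 and XAF1 by 0.91, and the member that rose was PARP1 (0.71, or -0.14 when scaled to the hybridization controls).

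In the death receptor pathway, where FAIM acts, 6 of 12 genes rose and 2 fell (median 0.28), beside 23% up and 29.7% down over all genes. CFLAR, which encodes the caspase-8 inhibitor FLIP, rose 2.10-fold (1.07 ± 0.06, SD, n = 2 calves; limma adjusted p = 0.000141), so that this inhibitor and FAIM moved in opposite directions. Scaled to the hybridization controls CFLAR stood at 0.22 (adjusted p = 0.162). FAS rose by 0.84 ± 0.39 and its adaptor gene FADD by 0.39 ± 0.12, but these stood at -0.01 and -0.47 in that scaling, and FADD did not pass without the calf block (limma adjusted p = 0.056) or in 3 of the 4 fits that left out an array. TNF rose by 2.63, and TRADD, the adaptor of TNF receptor 1, fell by 1.07 on the log2 scale and the death receptor gene TNFRSF21 by 0.79, the last not called without the PBS array of calf 301 (-0.82, adjusted p = 0.0747) or of calf 303 (-0.75, adjusted p = 0.1). Of 14 measured genes listed as p53 targets, 5 rose and 6 fell (median -0.05), beside 23% and 29.7% of all genes. CDKN1A (4.69), GADD45B (2.14) and SESN2 (1.13) rose, and XPC (-1.37) and DDB2 (-0.83, with -1.08 to -0.40 over its 3 probe sets) fell. GADD45A (-0.56) and CCNG1 (-0.75) of the same list fell too, and MDM2 stood at 0.11 (limma adjusted p = 0.409). SESN2 narrowly missed the threshold without the PBS array of calf 303 (0.98, limma adjusted p = 0.0511) and, in the scaling to the hybridization controls, was at 0.28 (adjusted p = 0.0728).

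Markers of the sorted cells and of other blood cells were read on the same arrays. Of 12 T cell markers 7 fell and 1 rose, beside 29.7% down and 23% up over all genes. Their geometric mean ratios were 0.769 and 0.911 with APP against 1.04 and 1.20 with PBS. CD2 and LCK, among those that fell, also read higher in calf 303 by 1.10 and 1.51 (limma adjusted p = 0.00382 and 0.00126). For both, the APP and PBS arrays overlapped. In a population of cells a loss of T cells and a loss of RNA per T cell cannot be told apart. Of 12 monocyte and dendritic cell markers 2 rose, CD14 (0.46) and CD68 (2.31), with geometric mean ratios of 1.03 and 1.15 with APP against 0.869 and 0.915 with PBS. Of 4 B cell markers 2 fell (CD79A and MS4A1), and 1 of 6 natural killer markers rose (KLRD1). The marker lists were not run under the alternative settings. The rises of the T cell marker CD5 (0.62), of CD14 and of KLRD1 (0.30) were smaller than the mean offset of the hybridization controls, 0.85. None of 7 granulocyte and 8 platelet and red cell markers passed limma's adjusted test. In each of these last lists 1 had an unadjusted p under 0.05, as had 5368 of all 9155 genes. Whether any marker lay at background is unknown on this scale, so the label of the cells could not be checked by level. As a sign of RNA quality, the 3' probe sets of 6 control genes changed relative to their 5' probe sets by between -0.33 and 0.03 over the 2 calves. Only actin in calf 303 (0.03) lay above 0, so these shifts ran almost all in the same direction with APP. The part of these shifts in the changes of the BCL2 family was not tested.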

How the data were processed

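Biotin-labelled cRNA made from 15 µg of total RNA of each of the 4 cell samples was read on Affymetrix bovine arrays, per the labels' protocols. The authors summarised the probes with RMA, per the submitters' processing notes, with no version or option given in the sources used here. The deposited values are linear ratios, each probe set divided by its median across arrays, a unit found from the values: after 1 factor per array the mean of the 2 middle values was 1 to within 0.000538 for all 24128 probe sets. No count or depth exists, and precision is set by the number of arrays.

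Log2 of the ratios was taken with no further normalization, and 112 control probe sets were left out, leaving 24016. Gene names came from the platform table, updated by gene identifier through a RefSeq table of assembly ARS-UCD2.0 used for names only (13263 of the 13292 probe sets with 1 gene symbol matched, 86 had several symbols and 10638 none). A gene's value is the mean log2 over its probe sets, except where BCL2 is given by probe set. Limma 3.58.1 in R 4.3.3 (lmFit, eBayes, two-sided) was run with the calf as a block, which leaves 1 residual degree of freedom per gene and borrows 5.86 prior ones across genes, with Benjamini-Hochberg adjustment over all genes or all probe sets. The titles name the same 2 calves in both treatments, which pairs the arrays. The difference between the calves correlated at r = 0.514 between APP and PBS across probe sets, which are not independent. An exact permutation test of 2 arrays against 2 that ignores the pairing cannot go below p = 0.333. One that keeps the pairing has fewer arrangements and a higher floor, and neither was made. The limma step was tested on simulated data.

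The genes described and the related lists were chosen with earlier results of these data known. Named list genes are up to 5 per list with the largest change among those called, plus direct partners of the genes described, whose selection was made with values in view. Alternatives were the fit without the block, other scalings, robust prior estimation, leaving out each array, and other summaries of probe sets. In the scaling to the hybridization controls the prior degrees of freedom were infinite. All genes then shared 1 pooled variance, so p-values in that scaling are not on the footing of the main fit. No paper was used.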

Additional observations from a re-analysis of the deposited data

Results flagged for a closer look

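BAX and the BCL2 probe set Bt.13141.1.A1_at were singled out because the calves moved in opposite directions with APP. For BAX the log2 change was 0.07 in calf 301 against -0.168 in calf 303. For the BCL2 probe set it was -0.02 in calf 301 against 0.387 in calf 303. With 1 array per treatment and calf, the difference between the calves was not tested.

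The hybridization controls, which enter no comparison, were singled out because they read higher on the APP arrays than on the PBS arrays by 0.851 on the log2 scale in the mean of the calves. Over the 14 probe sets used, those of bioB, bioC and bioD, the difference ran from 0.451 to 1.26, above 0 for every one in both calves. Any other hybridization control on the array was not read.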

How the results depend on the processing

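BCL2L1, BCL2A1 and FAIM kept their direction and their call under every alternative that gave them a value; FAIM has no value without probe sets of suffix _s, _x or _a, which left 0 members down 2-fold and 1 down by limma. Centring arrays on their medians shifted changes by at most 0.003. Without the replicate block, 1399 genes and 2473 probe sets rose, 1 of the 8 genes fell, 2 other family genes rose and 1 fell, 3 p53 targets rose, and 1 transcription factor gene and 4 modifiers fell; the block changed no other count by over 1.5 times. Scaling to the hybridization controls, which shifts all changes, gave 286 genes up and 8182 down (615 and 21653 probe sets; 92 and 2852 genes at 2-fold in both calves), so rises were a far smaller share of the calls. Limma's prior degrees of freedom were infinite in that scaling, against 5.86 in the main fit. All genes then shared 1 pooled variance, so calls and p-values there rest on another error model. In that scaling 2 of the 8 genes rose and 5 fell (1 and 2 at 2-fold in both calves). The counts of rises and falls were 0 and 13 for other family genes, 4 and 25 for modifiers, 6 and 9 for transcription factors, 0 and 21 for the mitochondrial step, 1 and 8 for death receptors and 2 and 11 for p53 targets, and 4 survival cytokine genes fell. Direction turned there for BCL2 (-0.40, its probe set Bt.13141.1.A1_at -0.67), MCL1 (-0.25), BCAP31 (-0.48), BCL2L15 (-0.49), FADD (-0.47), FAS (-0.0094), FBXW7 (-0.18), HUWE1 (-0.71), IL21R (-0.019), PARP1 (-0.14), RELA (-0.022), SFN (-0.61), VDAC2 (-0.69), YWHAE (-0.53), YWHAG (-0.11), YWHAH (-0.43), YWHAQ (-0.16) and YWHAZ (-0.27). BAX, not called, ran from -0.22 (without the APP array of calf 301) to 0.12 (without the APP array of calf 303), with 0.0033 without the PBS array of calf 301. Genes called between the calves numbered 82 with median-centred arrays, 83 with medians of probe sets and 660 with the control scaling. Leaving out 1 array, in fits without the block that take the lone array to vary like the other treatment, gave 745 to 1292 genes up and 1305 to 2012 down (1155 to 2406 and 2455 to 4281 probe sets), with 2 to 4 of the 8 genes up and 1 down. Over the same fits rises and falls were 1 to 2 and 0 to 1 for other family genes, 8 to 11 and 2 to 5 for modifiers, 10 to 13 and 0 to 2 for transcription factors, 1 and 4 to 7 for the mitochondrial step, 3 to 6 and 1 to 2 for death receptors, 2 to 3 and 4 for p53 targets, and 5 and 0 for survival cytokine genes. Of 52 named list genes, 9 and 6 lost their call without the APP arrays of calves 301 and 303, 13 and 12 without the PBS arrays, and 7 without the block alone. The cause of these differences was not tested, beyond the smaller number of arrays. Signal over background is unknown, so small changes of dim probe sets may be compressed.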
